A study of Caenorhabditis elegans with 12 samples.

Results

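The strain that carries both transgenes, CA-AAK-2;CA-CRTC-1 (strain WBM66, called the double strain here), was set against the wild type N2 across all genes. A gene entered the comparison when its mean over the 6 libraries of these strains was at least 5 CPM (the reads of a gene scaled to a fixed library total), which 10594 of the 14505 genes in the tables did. Whole Caenorhabditis elegans were grown from synchronised L1 larvae at 20 degrees on OP50-1 bacteria and taken at the L4 larval stage, in 3 biological replicates a strain. The double strain carries CA-AAK-2 together with CA-CRTC-1, a form of CRTC-1 with the changes S76A and S179A. The single strains CA-AAK-2 (WBM60) and CA-CRTC-1 (WBM55) carry 1 of the transgenes each, and N2 carries neither. All 12 libraries were used, so that each gene of the double strain could also be set against both single strains. The promoters, insertion sites and copy numbers of the transgenes, and how many independent lines stand behind a strain, are not given in the sources used here.

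AAK-2 is a catalytic subunit of the worm's AMP-activated protein kinase (AMPK), which is switched on when cellular energy runs low and turns metabolism from synthesis towards the burning of fuel. CRTC-1 is a coactivator of the CREB transcription factor CRH-1, and AMPK phosphorylation keeps it out of the nucleus. By its title the series is about CRTC-1 of neurons, metabolism of mitochondria across the body, and lifespan. The double strain asks what active AAK-2 does to transcripts when a form of CRTC-1 that cannot be phosphorylated at the altered serines is also present.

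The libraries held 30887631 to 48989013 counted reads, 35381077 to 42105903 in the double strain and 30887631 to 48842023 in N2. Levels are CPM in replicates 1, 2 and 3, and differences are double strain minus the other strain on the log2(CPM + 0.5) scale, with their SE. A gene was called, and is said to have risen or fallen, when its difference reached 1.5-fold and its p from limma, adjusted after Benjamini and Hochberg, did not exceed 0.01. The N2 libraries were close to each other, whereas the double libraries were not all alike. Of 10013 genes above 5 CPM in both strains, 195 differed by over 2-fold between some pair of double libraries and 12 between some pair of N2 libraries. Replicates 2 and 3 of the double strain were the least alike (r = 0.9795 across genes, against 0.9923 and 0.9875 for the other pairs). On the authors' scale the median difference over all genes tested was 0.14, and scaling by the median ratio moved it to -0.03. edgeR and DESeq2 used scale factors of their own on the reads recovered from the CPM values, with medians of -0.005 and -0.02. Small differences in either direction depend on the scale. Values of limma and edgeR set side by side below therefore differ in scale as well as in test. The kit keeps no strand, and reads of near-identical copies (small heat shock, vitellogenin and collagen genes, for example) and of overlapping genes cannot be kept apart. Single members of such families are less certain than the family. In whole animals fewer cells of a type and less RNA per cell cannot be told apart.

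The transgenes showed in the reads of the double strain. aak-2, on chromosome X, had 2919, 2785 and 3270.1 CPM in the double strain, 2439.9, 2509 and 2639.9 CPM in CA-AAK-2, 60.14, 61.1 and 69.8 CPM in CA-CRTC-1 and 59.9, 57.2 and 67.9 CPM in N2. crtc-1, on chromosome I, had 379, 356 and 349.9 CPM in the double strain, 19.2, 17.7 and 23.2 CPM in CA-AAK-2, 183, 177 and 207 CPM in CA-CRTC-1 and 19.8, 18.3 and 23.4 CPM in N2. aak-2 was thus close to the level of its single strain (0.24 ± 0.08 against CA-AAK-2, adjusted p = 0.038 from limma, under the fold threshold). In contrast crtc-1 stood 0.94 ± 0.10 above its single strain (adjusted p = 1.7e-05). The higher crtc-1 level is a difference between the double and the CA-CRTC-1 strain that goes along with every comparison of these strains below. Its part in them was not tested. Among the worm's other AMPK genes, aakg-4, a gamma subunit gene, rose (0.91 ± 0.12), aak-1, the other catalytic subunit, stood at -0.20 ± 0.08, and the beta subunits aakb-1 and aakb-2 at -0.07 ± 0.11 and 0.04 ± 0.11. In the list of 12 AMPK genes 4 rose, aak-2 among them, and 0 fell by limma, while edgeR called 2 higher and 1 lower. rcan-1, a regulator of the phosphatase calcineurin, rose to 43, 42.9 and 50.8 CPM in the double strain, against 22.5, 22.9 and 25.3 CPM in CA-AAK-2, 47.9, 46.9 and 53 CPM in CA-CRTC-1 and 25.4, 24.1 and 29.7 CPM in N2, a difference of 0.78 ± 0.10 from N2 and of -0.11 ± 0.10 from CA-CRTC-1, whose libraries it overlapped.

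Across all genes tested 1655 rose (15.6%) and 728 fell (6.87%) in the double strain against N2, 22.5% in either direction, and 6788 (64.1%) had an unadjusted p under 0.05. The balance between rises and falls depends on the scale. In all 1071 genes rose and 1157 fell after median-ratio scaling, and 1177 rose and 1091 fell with edgeR on the reads recovered from the CPM values. No call turned round under any alternative, and 1799 of the 2383 calls were kept after median-ratio scaling. On the deposited scale large rises outnumbered large falls, with 694 rises (6.55%) and 257 falls (2.43%) of at least 2-fold. There were 215 rises (2.03%) and 29 falls (0.274%) of at least 4-fold, and 68 rises (0.642%) and 10 falls (0.0944%) of at least 8-fold. The share of genes that fell grew with the level in N2, and the share that rose shrank. Of the 282 genes in the highest range of N2 levels, 10 rose and 50 fell, and of 4004 genes at 5 to 20 CPM 716 rose and 224 fell. Genes under 5 CPM in N2 could enter only through a higher level in the double strain, and 332 of them (76.3%) rose. Likewise 146 genes were under 5 CPM in the double strain and could enter only through a higher level in N2. Of these 77 fell. Of 10013 genes at or above 5 CPM in both strains 1323 rose (13.2%) and 651 fell (6.5%). For the gene groups with several members that passed the filter through 1 strain alone, the count over the members at or above 5 CPM in both strains is given as well. By chromosome the X had the largest share of falls (12.1%) and a median difference of 0.01. Chromosome V had the largest share of rises (20.8%) and chromosome III the smallest shares of both (13.03% and 4.804%).

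**Figure D1:**
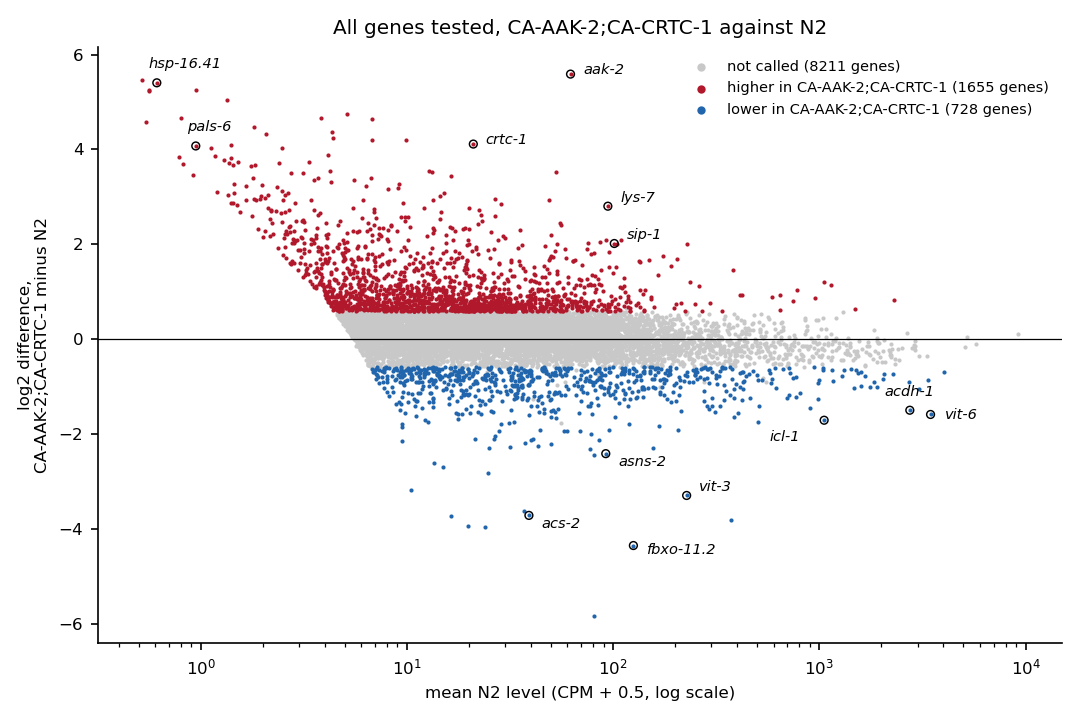
Each point is 1 of the 10594 genes tested: the log2 difference of the double strain from N2 is plotted against the mean level in N2 (CPM + 0.5, log axis), with called genes in colour and 13 genes of the text circled. The empty corner at the lower left and the rises above it follow from the filter, since genes under 5 CPM in N2 entered only through a higher level in the double strain, and 332 of them rose.

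To find what the double strain shows beyond either transgene alone, a gene was counted as apart when the double strain was called in the same direction against N2, against CA-AAK-2 and against CA-CRTC-1. Against CA-CRTC-1 502 genes were higher (4.68%) and 447 lower (4.17%; 8.85% in either direction) of 10727, and against CA-AAK-2 813 were higher (7.66%) and 385 lower (3.63%; 11.3% in either direction) of 10607. Of 10411 genes tested in all 3 comparisons 250 were apart and higher (2.4%) and 208 apart and lower (2%). These tests share the double libraries, so they are not independent of each other. 161 of the 250 and 133 of the 208 stayed apart whichever of the 12 libraries was left out, and with edgeR 219 and 207 of them stayed apart. The genes that were apart and lower had a median level of 18.5 CPM in the double strain and 47.9 CPM in N2, and those apart and higher a median of 30.1 CPM in the double strain and 8.06 CPM in N2.

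Genes of fat burning were among those lower in the double strain than in all 3 other strains. acs-2, an acyl-CoA synthetase that commits fatty acids to mitochondrial oxidation, had 1.85, 3.19 and 2.51 CPM in the double strain, 24.1, 21.3 and 29.6 CPM in CA-AAK-2, 37, 41.1 and 47.6 CPM in CA-CRTC-1 and 39.9, 34.1 and 41.7 CPM in N2. No library of the double strain came near any other library. As acs-2 was under 5 CPM in the double strain, it entered each comparison only through the other strain. The difference was -3.71 ± 0.16 from N2, -3.09 ± 0.16 from CA-AAK-2 and -3.83 ± 0.16 from CA-CRTC-1 (adjusted p = 5.8e-10, 5.1e-09 and 2.4e-09). Of 21 genes of mitochondrial fatty acid oxidation 6 fell and 0 rose (4 of the 19 at or above 5 CPM in both strains fell, with a median of -0.25), and 4 of the 6 were apart. cpt-4, a carnitine palmitoyltransferase gene, had 16.7, 20.9 and 19.1 CPM in the double strain, 63.3, 52.6 and 65.2 CPM in CA-AAK-2, 35.1, 47.2 and 46.8 CPM in CA-CRTC-1 and 54.6, 58.3 and 47.8 CPM in N2 (-1.48 ± 0.13 from N2). Its relative cpt-5 fell further against N2 (-2.60 ± 0.18), to 1.71, 2.39 and 1.17 CPM in the double strain. At this level cpt-5 entered the comparison with N2 only through N2. Its level in the other transgenic strains was too low for it to be tested against them. The core enzymes kat-1, acdh-10 and cpt-2, which serve the same pathway, stood at -0.38, -0.49 and -0.39 and were not called by limma, although edgeR called acdh-10 lower (-0.64).

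Peroxisomes shorten long fatty acids and in the worm make the side chains of the ascaroside pheromones. Of 24 peroxisome genes 9 fell and 1 rose (median -0.42), and 7 of the falls were apart. acox-1.2, an acyl-CoA oxidase gene, had 4.6, 4.63 and 8.39 CPM in the double strain, 27.3, 20.2 and 33.4 CPM in CA-AAK-2, 24.1, 31.4 and 25.3 CPM in CA-CRTC-1 and 27.9, 25 and 24.8 CPM in N2 (-2.099 ± 0.20 from N2, adjusted p = 1.0e-06). pmp-5, a peroxisomal membrane transporter gene, fell by less (-1.64 ± 0.09), to 116, 123 and 129.5 CPM in the double strain, against 379, 358 and 414 CPM in N2. acox-1.1 (-1.29 ± 0.11) and acox-1.4 (-1.08 ± 0.14) fell and were apart as well. daf-22, the thiolase of the last step, fell against N2 (-1.0998 ± 0.08) but not beyond 1.5-fold against CA-CRTC-1 (-0.56 ± 0.08). The exception was acox-1.5, which rose to 100.1, 107 and 96.9 CPM in the double strain, against 50.9, 57.1 and 51 CPM in CA-AAK-2, 78.4, 86.7 and 79.7 CPM in CA-CRTC-1 and 56.1, 56.6 and 47.8 CPM in N2.

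Genes that break down propionate were lower in the double strain. When vitamin B12 is short, worms send propionate through a shunt instead of the B12-dependent carboxylase and mutase route. The enzymes of this shunt include ACDH-1, ECH-6, HACH-1 and HPHD-1. acdh-1 had 835, 1049 and 1049 CPM in the double strain, 2499, 2614 and 2971 CPM in CA-AAK-2, 2016, 2321 and 2164 CPM in CA-CRTC-1 and 2857, 2638 and 2741 CPM in N2. hphd-1 had 282, 307 and 288 CPM in the double strain, 729, 686 and 704 CPM in CA-AAK-2, 618, 649 and 652 CPM in CA-CRTC-1 and 692, 695 and 694 CPM in N2. The 4 shunt genes named here were apart and lower, with differences of -1.497 for acdh-1, -1.23 for ech-6, -1.48 for hach-1 and -1.25 for hphd-1 from N2. The double libraries of each lay below all 9 other libraries. On the B12-dependent side mmcm-1, the mutase, stood at 0.11 ± 0.06, and pcca-1, a carboxylase subunit, at -0.52 ± 0.06. Neither was called by limma on the deposited scale, while pcca-1 was called lower by edgeR (-0.67) and by limma after median-ratio scaling (-0.69). Among regulators, nhr-10, a nuclear receptor that drives the shunt, fell to 17.4, 16.7 and 17.8 CPM in the double strain, against 29.2, 25.8 and 28.5 CPM in N2 (-0.67 ± 0.09), while its partner nhr-68 stood at -0.13 ± 0.08. By comparison nhr-114, a nuclear receptor of the methionine cycle's B12 response, fell to 75.1, 76.9 and 75 CPM in the double strain, against 149.8, 101.1 and 146 CPM in CA-AAK-2, 192, 191 and 194 CPM in CA-CRTC-1 and 162, 187 and 158 CPM in N2. In the list of 16 propionate and B12 genes 7 fell and 0 rose by limma (median -0.52), and edgeR called 11 lower.

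Several genes of the methionine cycle, which regenerates methionine and supplies methyl groups, fell in the double strain. cth-1, which makes cysteine at the end of transsulfuration, had 27.7, 28.1 and 19.7 CPM in the double strain, 123, 111 and 126 CPM in CA-AAK-2, 82.1, 92.2 and 73.3 CPM in CA-CRTC-1 and 95.4, 97.7 and 91.9 CPM in N2 (-1.91 ± 0.12 from N2). ahcy-1, which clears S-adenosylhomocysteine, had 1451, 1478 and 1453 CPM in the double strain, 2401, 2102 and 2175 CPM in CA-AAK-2, 3198, 3431 and 3172 CPM in CA-CRTC-1 and 3122, 3122 and 2896 CPM in N2. It fell by 1.06 on the log2 scale from N2 and was apart, although without replicate 1 of CA-AAK-2 its difference from that strain was -0.55 and under 1.5-fold. mtrr-1, which reactivates the B12-dependent methionine synthase, fell to 115, 120.0 and 141 CPM in the double strain, against 237, 210.2 and 255 CPM in N2 (-0.90 ± 0.09). The synthase metr-1 itself stood at -0.52 ± 0.07, and the main S-adenosylmethionine synthetase sams-1 at -0.14 ± 0.09; edgeR called metr-1 lower (-0.67). Of 20 genes of this list 6 fell and 0 rose (median -0.20), 5 of them apart.

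Some genes that supply the cycle with 1-carbon units fell too. mel-32, a serine hydroxymethyltransferase, had 411, 385 and 463 CPM in the double strain, 738, 695 and 685 CPM in CA-AAK-2, 712, 755 and 676 CPM in CA-CRTC-1 and 767, 753 and 709.6 CPM in N2. folt-2, a folate transporter gene, fell by 1.17 on the log2 scale and pmt-2, a methyltransferase that uses S-adenosylmethionine to make phosphocholine, stood at -1.02, and both were apart. asns-2, an asparagine synthetase gene, fell furthest of this list, with 17.1, 17.3 and 16 CPM in the double strain, 63.3, 68.7 and 68.6 CPM in CA-AAK-2, 64.1, 64 and 60.6 CPM in CA-CRTC-1 and 91.1, 89 and 94.8 CPM in N2 (-2.41 ± 0.07 from N2, adjusted p = 4.6e-12). Of the 17 genes of asparagine, serine and 1-carbon metabolism 6 fell and 0 rose, with 5 apart. phdh-1 and spds-1, chosen after their values were seen, are the phosphoglycerate dehydrogenase of serine synthesis and a spermidine synthase. They fell to 67.4, 61 and 79.2 CPM and to 7.84, 7.94 and 10.6 CPM in the double strain, against 139, 136 and 142 CPM and 39.8, 38.6 and 40.6 CPM in N2, and both were apart.

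Nucleotide genes moved in both directions. Of 16 genes in the list 5 fell and 5 rose (median 0.18). Those that fell make bases from small precursors or break them down. The first, pyr-1, which opens pyrimidine synthesis, had 155, 174 and 197 CPM in the double strain and 450.03, 416 and 403 CPM in N2 (-1.27 ± 0.09). The enzyme gene that closes it, umps-1, had a difference of -1.25, dpyd-1, which starts pyrimidine breakdown, of -1.32, xdh-1, which makes uric acid, of -1.13, and ppat-1, which opens purine synthesis, of -1.16. All but umps-1 were apart. 3 further enzymes of purine synthesis, pfas-1, paic-1 and atic-1, were chosen after their values were seen and fell as well (-1.27, -1.34 and -1.78). Of these atic-1 had 33.9, 31.2 and 37.4 CPM in the double strain, 89, 86.5 and 92.2 CPM in CA-AAK-2, 79, 89.3 and 73.4 CPM in CA-CRTC-1 and 131, 118 and 107 CPM in N2. Of the 5 rises upb-1 belongs to pyrimidine breakdown (0.72; 0.58 and not called by edgeR), and the other 4 make building blocks of DNA. tyms-1, thymidylate synthase, had 26.9, 28.1 and 28.3 CPM in the double strain, 22.4, 22.4 and 23.9 CPM in CA-AAK-2, 16, 17.5 and 18.7 CPM in CA-CRTC-1 and 8.93, 9.77 and 9.33 CPM in N2 (1.52 ± 0.08). Next to it dut-1 rose by 1.28, and the ribonucleotide reductase genes rnr-1 and rnr-2 by 0.81 and 0.81. None of these 4 was called against CA-AAK-2.

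**Figure D2:**
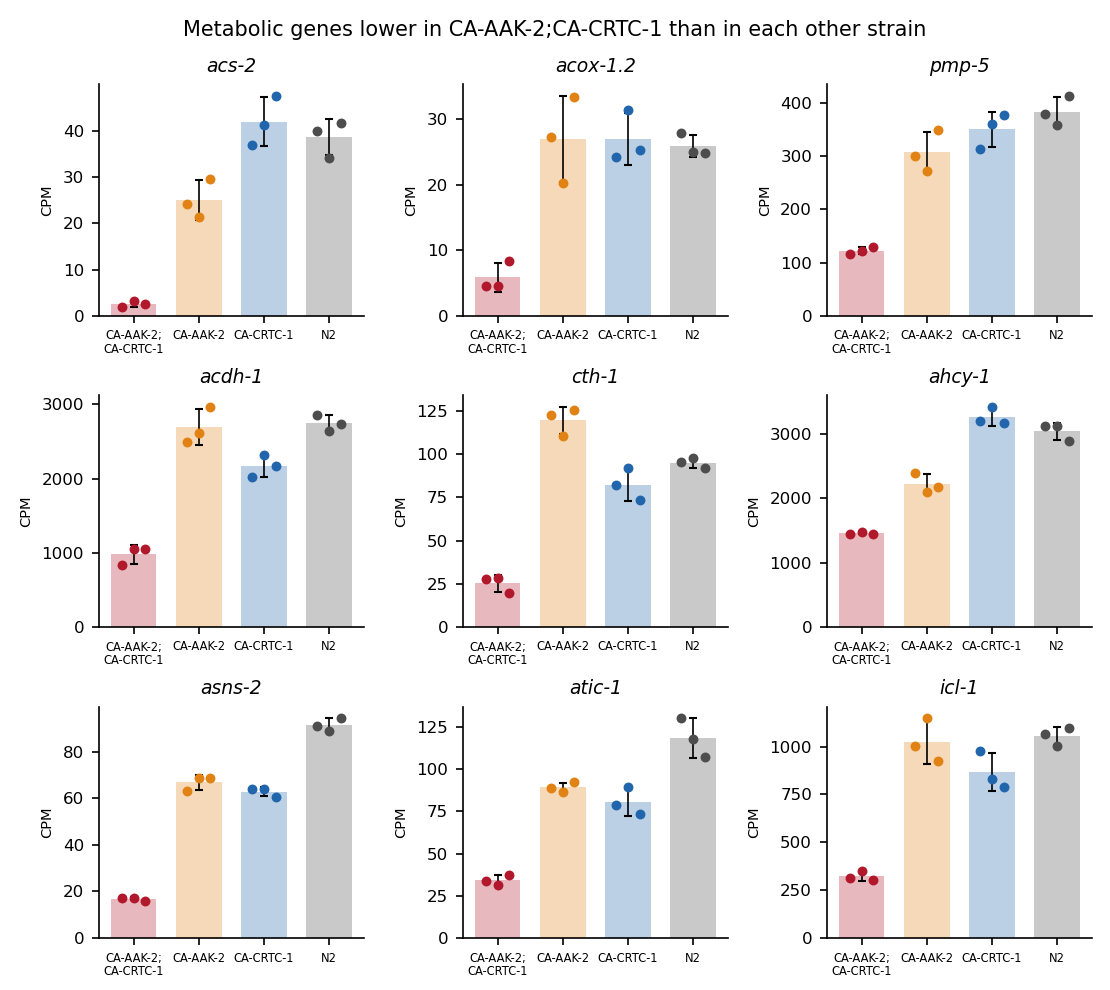
Levels (CPM, from 0) of 9 metabolic genes in the 3 libraries of each strain: points are libraries, bars are means and error bars are SD. In every panel the 3 double libraries, on the left, lie below all 9 libraries of the other strains.

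icl-1, whose enzyme runs the glyoxylate shunt that turns fat into sugar, had 313, 352 and 304 CPM in the double strain, 1003, 1152 and 923 CPM in CA-AAK-2, 978, 831 and 791 CPM in CA-CRTC-1 and 1065, 1003 and 1095 CPM in N2 (-1.71 ± 0.10 from N2). The gluconeogenesis genes pyc-1 and fbp-1 fell by less (-0.67 ± 0.06 and -0.70 ± 0.07) and were apart, while pck-1 and pck-2 stood at -0.49 and -0.52, called lower by edgeR (-0.65 and -0.66) and not by limma. msra-1, which repairs oxidised methionine, had 134, 156 and 158 CPM in the double strain, 540.0, 519.6 and 492 CPM in CA-AAK-2, 429.7, 525 and 504 CPM in CA-CRTC-1 and 535, 465 and 505 CPM in N2 (-1.74 ± 0.09). argk-1, an arginine kinase that buffers ATP, had 22.2, 13.5 and 13.1 CPM in the double strain, 81, 69.1 and 73.7 CPM in CA-AAK-2, 35.8, 38.9 and 29.1 CPM in CA-CRTC-1 and 40.6, 40.9 and 32.9 CPM in N2. It was lowest in the double strain and highest in CA-AAK-2, with differences of -1.24 ± 0.17 from N2 and -2.202 ± 0.17 from CA-AAK-2 (adjusted p = 2.3e-05 and 2.0e-07). The glutamine synthetase genes split. While gln-3 fell to 111, 111.6 and 108 CPM in the double strain, against 264, 258 and 301 CPM in N2, gln-5 rose to 64.9, 81.9 and 45 CPM in the double strain, against 15.2, 17.8 and 17.1 CPM in N2, and gln-6 rose by 1.67.

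Few genes of central energy metabolism were called, though some summed levels were lower. Of 21 genes of the TCA cycle none was called by limma, 11 had an unadjusted p under 0.05, edgeR called 2 lower and DESeq2 3 lower. Their summed level was 5404 to 5529 CPM in the double strain (median difference -0.14). It was 5911 to 6246.5 CPM in CA-AAK-2, 6244 to 6405 CPM in CA-CRTC-1 and 6040.5 to 6157 CPM in N2. Among 17 genes of glycolysis 2 rose and 1 fell, with 1 rise without double replicate 1 or N2 replicate 1. Of 67 mitochondrial ribosomal protein genes 1 fell by limma, 0 without double replicate 1, 2 without double replicate 2 or 3 or N2 replicate 3, and 9 by edgeR (median -0.28). Their summed level was 2260 to 2271 CPM in the double strain and 2640 to 2797 CPM in N2. It was 2701 to 3063 CPM in CA-AAK-2 and 2557 to 2776 CPM in CA-CRTC-1. Of 19 genes of mitochondrial fusion, fission and prohibitins none was called by any of the tools, and 12 had an unadjusted p under 0.05. hsp-60, the mitochondrial chaperonin, fell to 390.5, 349.6 and 258 CPM in the double strain, against 641, 619 and 507 CPM in N2 (-0.84 ± 0.14). It was the called member among 22 genes of the mitochondrial and endoplasmic unfolded protein responses, where hsp-4, a marker of endoplasmic reticulum stress, stood at 0.53 ± 0.13 and was called higher without double replicate 2 (0.68) or 3 (0.59).

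Enzymes that attach sugars to foreign and waste molecules were widely lower. Of 36 UDP-glucuronosyltransferase genes 18 fell and 3 rose (median -0.61), and 11 were apart and lower. ugt-66 had 8.99, 7.31 and 9.48 CPM in the double strain, 35.3, 30.7 and 49 CPM in CA-AAK-2, 28, 37.7 and 35.5 CPM in CA-CRTC-1 and 43, 36.8 and 48.4 CPM in N2. ugt-64 was lower in each single strain too, with 12.9, 16.6 and 13.6 CPM in the double strain, 33.2, 35.8 and 36.8 CPM in CA-AAK-2, 38.4, 42.2 and 41.1 CPM in CA-CRTC-1 and 78.5, 74 and 89.1 CPM in N2. Cytochrome P450 genes were mixed, 10 rising and 7 falling among 29, and 7 rising and 5 falling among the 23 at or above 5 CPM in both strains. Of these cyp-13A5 rose by 2.73 on the log2 scale and its family member cyp-13A6 fell by 2.27, and each was apart. gst-4, a glutathione S-transferase often used as a read-out of the factor SKN-1, fell to 7.75, 9.36 and 11.6 CPM in the double strain, against 36, 30.2 and 31.9 CPM in N2 (-1.73 ± 0.14). In turn gst-22 rose to 21.3, 19.1 and 27.5 CPM in the double strain, against 7.76, 6.14 and 5.53 CPM in N2. Without replicate 1 of the double strain the difference of gst-4 from CA-AAK-2 was -0.53 and no longer called.

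Several of the largest falls of the whole comparison were in genes with no role that could be given here. praf-3, a prenylated Rab acceptor gene, had 0.856, 0.78 and 1.09 CPM in the double strain, 83.9, 76.4 and 94.1 CPM in CA-AAK-2, 1.55, 1.49 and 1.46 CPM in CA-CRTC-1 and 76.5, 80.3 and 82.8 CPM in N2, so that it was low in both strains with CA-CRTC-1. fbxo-11.2 had 5.97, 3.27 and 9.04 CPM in the double strain, 56.5, 51.8 and 79.4 CPM in CA-AAK-2, 97, 90.7 and 79.8 CPM in CA-CRTC-1 and 132, 122.4 and 121 CPM in N2 (-4.35 ± 0.24 from N2). D1014.6 and its near neighbour in name D1014.7 fell to 1.51, 0.585 and 1.17 CPM and 0.563, 0.39 and 1.11 CPM in the double strain, against 23.1, 24.4 and 22.5 CPM and 10.5, 10.4 and 8.94 CPM in N2. Y71G12B.18 had 1.17, 0.244 and 1.19 CPM in the double strain and 19.1, 20.01 and 18.4 CPM in N2. fbxo-11.2, D1014.6 and Y71G12B.18 differed from each other strain by more than 8-fold. praf-3, D1014.6, D1014.7 and Y71G12B.18 were under 5 CPM in the double strain and entered the comparison with N2 only through N2. The size of their falls depends on the added 0.5 CPM.

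Several genes of small heat shock proteins rose in the double strain. These chaperones bind unfolding proteins and are induced by heat and by protein damage. Of 5 members at or above 5 CPM in both strains 3 rose and 0 fell. 3 further genes, hsp-16.1, hsp-16.2 and hsp-16.41, rose as well and were under 5 CPM in N2, so that they entered only through the double strain. hsp-16.41 had 32.7, 27.1 and 18.1 CPM in the double strain, 0.0933, 0.16 and 0.195 CPM in CA-AAK-2, 1.22, 1.71 and 2.36 CPM in CA-CRTC-1 and 0, 0.196 and 0.143 CPM in N2. The N2 level rests on 19 reads over its 3 libraries, against 3428 reads in the double strain, so the fitted difference (5.41 ± 0.22, adjusted p = 4.8e-10) depends on the added 0.5 CPM. hsp-16.2 had 37.4, 19.6 and 12.26 CPM in the double strain, with 9 reads in all of N2. For hsp-16.1 the levels were 21.3, 12.6 and 15.6 CPM in the double strain, 0.42, 0.606 and 1.51 CPM in CA-AAK-2, 4.08, 5.36 and 4.82 CPM in CA-CRTC-1 and 1.03, 0.464 and 0.517 CPM in N2. For all 3 genes every CA-CRTC-1 library lay between the double libraries and those of CA-AAK-2 and N2.

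sip-1, a small heat shock gene known from embryos, had 393, 502 and 342 CPM in the double strain, 194, 203 and 178 CPM in CA-AAK-2, 209.9, 181 and 198 CPM in CA-CRTC-1 and 84.6, 114.2 and 103.7 CPM in N2. Each single strain stood above N2 and the double strain above both (1.09 ± 0.13 and 1.05 ± 0.13, adjusted p = 1.4e-05 and 3.5e-05). hsp-17 and hsp-43 rose by 1.02 and 1.18 on the log2 scale. hsp-25 stood at 0.33 ± 0.09 and hsp-12.2 at -0.46 ± 0.09; edgeR called 1 member of the list lower. Of 23 genes for HSP70, HSP90 and their partners none was called by limma, 13 had an unadjusted p under 0.05 and edgeR called 2 lower. hsf-1, the heat shock transcription factor, had 56.6, 60.8 and 56.4 CPM in the double strain and 41.4, 45.5 and 43.3 CPM in N2 (0.41 ± 0.07), under the fold threshold.

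Some genes of lipases rose, lysosomal ones among them. Lysosomal acid lipases free fatty acids from stored fat, and the factor HLH-30 raises them in fasting while MXL-3 holds them down. lipl-2 had 27.2, 25.17 and 42.8 CPM in the double strain, 5.44, 8.08 and 6.27 CPM in CA-AAK-2, 5.65, 5.36 and 4.67 CPM in CA-CRTC-1 and 6.91, 6.47 and 5.55 CPM in N2. lipl-1 had 9.26, 11.1 and 18.4 CPM in the double strain, 0.21, 1.11 and 1.09 CPM in CA-AAK-2, 1.65, 2.22 and 3.02 CPM in CA-CRTC-1 and 2.57, 2.32 and 1.78 CPM in N2. Their differences from N2 were 2.21 ± 0.18 and 2.25 ± 0.31, and the double libraries of each lay above all other libraries. lipl-1 was under 5 CPM in N2 and entered only through the double strain. Of the 12 lipase genes 5 rose (4 of the 11 at or above 5 CPM in both strains) and 1 fell (2 without double replicate 1 or 3 or N2 replicate 3); lipl-5 rose by 0.76 on the log2 scale. mxl-3 fell to 38, 42.1 and 26.3 CPM in the double strain, against 86, 57.7 and 99.7 CPM in CA-AAK-2, 89.7, 108 and 96.4 CPM in CA-CRTC-1 and 83.8, 90.2 and 74.5 CPM in N2, and was apart. hlh-30 had 98.6, 98.2 and 99.5 CPM in the double strain and 69.6, 70.04 and 87 CPM in N2 (0.39 ± 0.11, adjusted p = 0.0068), under the fold threshold.

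Proteases and ceramidases are hydrolases of the lysosome and gut. Of 26 cathepsin-type protease and ceramidase genes 14 rose and 3 fell (median 0.62). cpr-3, a cathepsin B-like protease gene, had 70.02, 54.7 and 86.9 CPM in the double strain, 18.1, 21.6 and 21.9 CPM in CA-AAK-2, 21.2, 22 and 25.9 CPM in CA-CRTC-1 and 7.48, 9.9 and 9.92 CPM in N2 (2.87 ± 0.15). asah-1, an acid ceramidase gene, had 87, 59.7 and 106 CPM in the double strain, 24.8, 22.4 and 22.3 CPM in CA-AAK-2, 28.6, 25.9 and 27.8 CPM in CA-CRTC-1 and 13.9, 16.5 and 16.408 CPM in N2 (2.36 ± 0.15), and asah-2 rose by 1.13 on the log2 scale. Not all proteases rose, since asp-13, an aspartic protease gene, fell to 142, 173 and 174 CPM in the double strain, against 404, 355 and 401 CPM in N2. gana-1, a lysosomal alpha-galactosidase type enzyme chosen after its values were seen, rose by 1.27, as did sul-3, a sulfatase gene chosen likewise, by 2.73. sqst-1, the worm p62 that is itself cleared by autophagy, had 167, 149.9 and 195 CPM in the double strain, 74.1, 74.7 and 67.3 CPM in CA-AAK-2, 83.4, 85.5 and 84.8 CPM in CA-CRTC-1 and 48.7, 49.1 and 50.9 CPM in N2. The autophagy machinery as a list gave 5 rises and 1 fall among 24 genes by limma, 3 rises without N2 replicate 1, 2 without N2 replicate 2, and 1 by edgeR. The proton pump that acidifies lysosomes gave 7 falls and 2 rises among 21 vacuolar ATPase genes (1 rise without double replicate 2; median -0.49; 11 lower by edgeR). Of its subunits vha-15 had 178, 176 and 178.8 CPM in the double strain, 252, 233 and 240.1 CPM in CA-AAK-2, 284, 314 and 336 CPM in CA-CRTC-1 and 317, 309.7 and 313 CPM in N2. Against CA-CRTC-1 10 of these pump genes fell and against CA-AAK-2 none did.

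Many defence genes rose. Of 19 antimicrobial peptide genes (caenacins, defence nlp genes and the fip families) 12 rose and 1 fell, with 6 apart. At or above 5 CPM in both strains were 14 of them, of which 7 rose and 1 fell (median 0.84). The defence gene sysm-1 was under 5 CPM in N2 and entered only through the double strain. It had 37.2, 28.8 and 59.9 CPM in the double strain, 2.47, 3.05 and 2.65 CPM in CA-AAK-2, 12, 11.6 and 13.4 CPM in CA-CRTC-1 and 1.28, 1.32 and 1.34 CPM in N2 (4.48 ± 0.19 from N2, adjusted p = 5.8e-10 from limma). Not all followed CA-CRTC-1 in this way. The epidermal peptide gene cnc-4 had 137, 95.6 and 74 CPM in the double strain, 27.5, 32.5 and 26.4 CPM in CA-AAK-2, 15.5, 17.6 and 20.3 CPM in CA-CRTC-1 and 22.3, 15.9 and 20.4 CPM in N2. Another, nlp-34, had 66.4, 46.5 and 60.102 CPM in the double strain, 19.2, 26.9 and 29.2 CPM in CA-AAK-2, 11.3, 13.2 and 13.3 CPM in CA-CRTC-1 and 23.3, 20.4 and 26.1 CPM in N2. For nlp-34 the CA-CRTC-1 libraries were the lowest of the 12. lys-7, a lysozyme gene of the gut, had 582, 567 and 862 CPM in the double strain, 218, 234 and 220.0 CPM in CA-AAK-2, 221, 222 and 206 CPM in CA-CRTC-1 and 86.6, 99 and 95.8 CPM in N2 (2.80 ± 0.12). 3 of 9 lysozyme genes rose, namely lys-7, lys-5 (1.95) and lys-2 (1.32). Besides lys-7, which was well above 5 CPM in N2, 1 of the rises was under it and entered only through the double strain.

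Infection response genes, read-outs of the p38 kinase and related immune pathways, were higher in 13 and lower in 1 of 25 cases, and in 11 and 1 of the 22 at or above 5 CPM in both strains (0 lower without double replicate 1 or N2 replicate 2). dod-22 had 11, 10.4 and 20.5 CPM in the double strain, 3.59, 4.57 and 4.68 CPM in CA-AAK-2, 1.37, 1.82 and 2.34 CPM in CA-CRTC-1 and 1.17, 1.61 and 1.14 CPM in N2. hpo-6 had 111, 97.5 and 169 CPM in the double strain, 37.6, 41.6 and 40.03 CPM in CA-AAK-2, 35.1, 39.7 and 41.8 CPM in CA-CRTC-1 and 24.3, 26.6 and 24.1 CPM in N2. irg-5 overlapped with CA-CRTC-1, with 20.5, 41.2 and 71.6 CPM in the double strain, 2.94, 3.51 and 3.18 CPM in CA-AAK-2, 27.2, 33.5 and 41.6 CPM in CA-CRTC-1 and 1.23, 2.21 and 2.53 CPM in N2. Replicate 3 of the double strain was the highest library for all 3 genes. dod-22 and irg-5 were under 5 CPM in N2 and entered only through the double strain. Of the kinase genes themselves pmk-1 stood at -0.04 ± 0.11 and sek-1 at 0.07 ± 0.10, neither called. Their upstream adaptor tir-1 rose to 39.3, 33.4 and 37.7 CPM in the double strain, against 23, 24.1 and 22.8 CPM in N2, by limma but not by edgeR (0.51). C-type lectins rose in 20 and fell in 8 of 55 cases, and in 16 and 6 of the 49 at or above 5 CPM in both strains, from clec-17 (4.67) and clec-67 (2.94) to clec-52 (-2.69).

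The pals genes belong to the intracellular pathogen response, which worms mount against microsporidia and viruses with the help of a cullin ubiquitin ligase. Of 19 pals genes in the deposited data only 7 were tested, and 4 of these were under 5 CPM in N2 and entered only through the double strain. Of the other 3, pals-23 and pals-24 rose (1.08 and 0.85) and pals-18 stood at -0.13. With those under 5 CPM in N2 the count was 5 rises of 7, and 3 without replicate 1, or without replicate 3, of the double strain. pals-6 had 16.8, 13.1 and 15.8 CPM in the double strain, 0.607, 0.892 and 0.725 CPM in CA-AAK-2, 5.65, 3.87 and 4.89 CPM in CA-CRTC-1 and 0.2, 0.517 and 0.624 CPM in N2 (4.07 ± 0.19). pals-14 had 10.5, 10.5 and 8.03 CPM in the double strain, 0.513, 0.357 and 0.335 CPM in CA-AAK-2, 2.07, 1.78 and 1.65 CPM in CA-CRTC-1 and 0.514, 0.357 and 0.375 CPM in N2. Genes of the ligase were looked at after their values were seen. cul-6, the cullin, had 8.2, 8.58 and 9.31 CPM in the double strain and 4.31, 4.07 and 4.41 CPM in N2. Being under 5 CPM in N2, cul-6 entered only through the double strain. The gene skr-3, its SKP1-type partner, had 87.3, 75.9 and 85.5 CPM in the double strain, 35.4, 37.2 and 34.6 CPM in CA-AAK-2, 43.2, 46.6 and 45.5 CPM in CA-CRTC-1 and 42.4, 39.5 and 37.4 CPM in N2. Of 61 F-box and MATH-BTB genes 19 rose and 2 fell (0 falls without N2 replicate 1, 4 by edgeR), and 11 of the 50 at or above 5 CPM in both strains rose. One of the rises under 5 CPM in N2 was fbxa-182, with 14, 9.77 and 11 CPM in the double strain and 1.57, 1.93 and 1.62 CPM in N2.

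Among metal handling genes the share of falls was above that of all genes, and the share of rises was near it. mtl-1, a metallothionein and classic DAF-16 target, had 13.4, 15.6 and 22.7 CPM in the double strain, 1.73, 2.32 and 2.23 CPM in CA-AAK-2, 4.33, 3.69 and 2.76 CPM in CA-CRTC-1 and 1.97, 1.66 and 1.25 CPM in N2 (3.04 ± 0.20). It was under 5 CPM in N2 and entered only through the double strain. cdr-4, a cadmium-responsive gene, rose to 64.8, 42.4 and 63.7 CPM in the double strain, against 15.3, 13.7 and 16.09 CPM in N2. The other metallothionein, mtl-2, fell to 118.5, 104.2 and 174 CPM in the double strain, against 289, 247 and 290.4 CPM in N2. The gene hrg-7, which takes part in haem signalling from gut to neurons, fell to 74.7, 86.6 and 62.6 CPM in the double strain, against 199.8, 188 and 205 CPM in CA-AAK-2, 226, 246 and 215 CPM in CA-CRTC-1 and 217, 222 and 199.7 CPM in N2. The ferritin gene ftn-2 fell as well (-0.70 ± 0.13). Of 19 genes in the list 3 rose and 5 fell, with 8 lower by edgeR. Of the 17 at or above 5 CPM in both strains 2 rose and 4 fell.

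**Figure D3:**
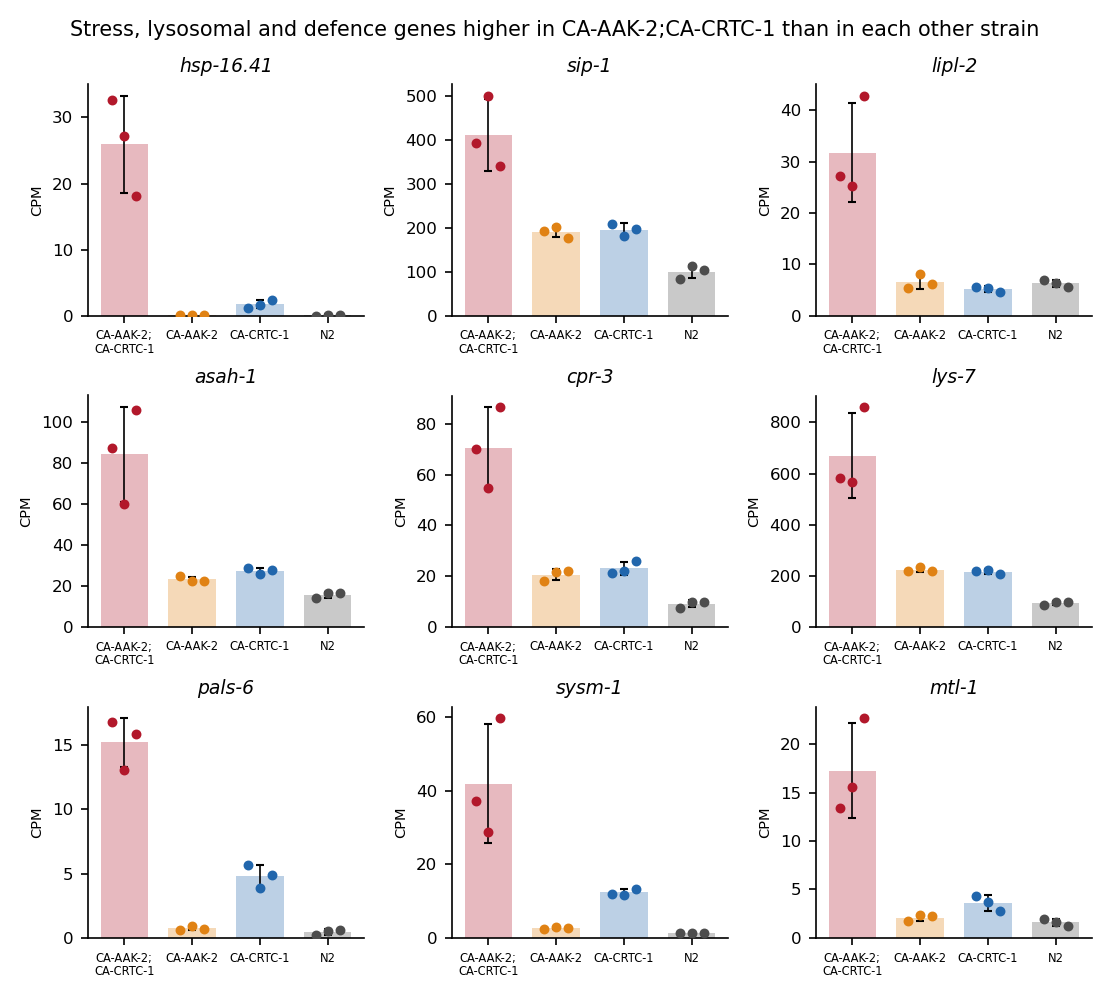
Levels (CPM, from 0) of 9 stress, lysosomal and defence genes in the 3 libraries of each strain: points are libraries, bars are means and error bars are SD. In every panel the 3 double libraries, on the left, lie above all 9 libraries of the other strains, and for hsp-16.41, pals-6 and sysm-1 the CA-CRTC-1 libraries come next.

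Among unnamed or little described genes some were far higher in the double strain than in every other library. F14F9.2 had 20.3, 22.4 and 24 CPM in the double strain, 0.0233, 0.107 and 0 CPM in CA-AAK-2, 1.2, 0.509 and 0.26 CPM in CA-CRTC-1 and 0, 0 and 0.0535 CPM in N2. Its level in N2 rests on 3 reads, all in replicate 3, against 2969 in the double strain. This is a ratio of 1093 with an exact 95% counting interval of 374 to 5304 that covers counting error only. F33H12.7 had 29.8, 27.5 and 53.3 CPM in the double strain, 2.33, 5.05 and 3.76 CPM in CA-AAK-2, 3.63, 2.42 and 3.28 CPM in CA-CRTC-1 and 0.571, 0.535 and 0.232 CPM in N2. For T26H5.9 the levels were 32.6, 27.6 and 33.1 CPM in the double strain and 1.53 to 5.03 CPM over the 9 libraries of the other strains. srlf-34 was at 99.2, 75.9 and 73.1 CPM in the double strain, 1.56, 2.98 and 1.92 CPM in CA-AAK-2, 7.59, 11.3 and 13.1 CPM in CA-CRTC-1 and 4.37, 3.07 and 4.17 CPM in N2. These genes were called in all 3 comparisons of the double strain. F14F9.2, F33H12.7 and srlf-34 were under 5 CPM in N2 and in CA-AAK-2, and entered these comparisons only through the double strain. F14F9.2 and F33H12.7 entered the comparison with CA-CRTC-1 in the same way. T26H5.9 did not exceed 5.03 CPM outside the double strain.

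Part of what set the double strain against N2 was found in a single strain as well, and here the values of the strains are given side by side, since the comparisons share libraries. Genes of oocytes and of the eggshell were higher in the double strain at this larval stage. Of 22 oocyte genes 19 rose against N2 and 0 fell (median 1.23; 16 of the 19 at or above 5 CPM in both strains rose), 16 rose against CA-CRTC-1 and 0 of them against CA-AAK-2. puf-5, an RNA-binding regulator of oocytes, had 192, 239 and 129 CPM in the double strain, 126, 146 and 136 CPM in CA-AAK-2, 79.9, 91.4 and 84.5 CPM in CA-CRTC-1 and 40.9, 51.7 and 46.7 CPM in N2. Of 13 eggshell genes 10 rose (median 1.47), 10 against CA-CRTC-1 and 2 against CA-AAK-2. cpg-1, an eggshell proteoglycan gene, had 416, 498 and 282 CPM in the double strain, 227, 211 and 237 CPM in CA-AAK-2, 170.2, 175 and 188 CPM in CA-CRTC-1 and 78.2, 99.4 and 97.6 CPM in N2, and was apart. The summed level of the oocyte list was 3259 to 4749 CPM in the double strain, 3816 to 3924 CPM in CA-AAK-2, 2637 to 2786 CPM in CA-CRTC-1 and 2268 to 2384 CPM in N2. Within the double strain the group medians were highest in replicate 2 and lowest in replicate 3.

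Replication genes were higher in the double strain than in N2. Of 38 genes of DNA replication and the cell cycle 21 rose against N2 (13 by edgeR) and 0 fell (median 0.61), 4 rose against CA-CRTC-1 and 0 against CA-AAK-2, with whose libraries the summed level overlapped. mcm-3, a subunit of the replicative helicase, had 94.7, 98.2 and 86.3 CPM in the double strain, 75, 70.8 and 67.1 CPM in CA-AAK-2, 62.9, 62.8 and 66.6 CPM in CA-CRTC-1 and 44.6, 48.1 and 44.1 CPM in N2 (1.02 ± 0.07). Genes of the mitotic germ line and meiosis moved little, with 2 rises among 31 (1 without double replicate 2 or N2 replicate 1), and of 63 sperm genes 3 rose and 1 fell (1 to 7 rises and 0 to 2 falls when a library was left out), with summed levels of 4424 to 5395 CPM in the double strain and 4178 to 5269.5 CPM in N2. In the list of 11 genes of yolk, its receptor and its regulators 5 fell and 1 rose (4 falls by edgeR, 4 to 7 when a library was left out). vit-3 had 23.4, 49.7 and 9.75 CPM in the double strain, 38, 37.5 and 44.4 CPM in CA-AAK-2, 71.6, 102 and 73.4 CPM in CA-CRTC-1 and 256, 212 and 212 CPM in N2. Likewise vit-6 had 1296, 2436 and 483 CPM in the double strain, 1043, 1319 and 1058 CPM in CA-AAK-2, 2853, 3022 and 2565 CPM in CA-CRTC-1 and 3531, 3618 and 3234 CPM in N2. In the double strain replicate 3 was the lowest and replicate 2 the highest for both, over a wide range. By contrast vit-2 overlapped between the strains (-0.48 ± 0.32), with a difference of -0.95 without double replicate 2, when it was called, and of 0.04 without double replicate 3. The receptor for yolk, rme-2, rose (1.45 ± 0.14) and ceh-60, a homeobox regulator of yolk genes, fell (-0.67 ± 0.10).

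Cuticle genes gave large changes in both directions. Of 123 collagen genes 33 rose and 32 fell against N2 (26 of the 116 at or above 5 CPM in both strains rose; 31 rises and 43 falls by edgeR, 28 and 46 after median-ratio scaling), 41 rose and 19 fell against CA-AAK-2, and 5 rose and 4 fell against CA-CRTC-1. col-98 had 124, 176 and 109 CPM in the double strain, 12.4, 15.6 and 17.9 CPM in CA-AAK-2, 131, 73.8 and 116 CPM in CA-CRTC-1 and 3.68, 4.01 and 6.12 CPM in N2, and overlapped with CA-CRTC-1. col-95 had 13.2, 46.1 and 14.4 CPM in the double strain, 0.0233, 0.25 and 0.251 CPM in CA-AAK-2, 1.48, 0.763 and 1.23 CPM in CA-CRTC-1 and 0, 0.0357 and 0.143 CPM in N2, with 10 reads in all of N2, and was apart. Replicate 2 of the double strain was its highest library for col-95, as for col-143 (30.4, 82.3 and 28.4 CPM in the double strain) and for col-98. Of the most abundant collagens col-73, col-77 and col-138 fell (-0.70, -0.86 and -0.90), and the summed level of the list was 50197 to 55136 CPM in the double strain and 60686 to 63644 CPM in N2.

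Of 80 genes of the matrix made and shed at each moult 37 rose and 15 fell, and 30 and 13 of the 70 at or above 5 CPM in both strains. noah-1, a component of the apical matrix, had 141, 88.4 and 239.9 CPM in the double strain, 124, 93.4 and 111 CPM in CA-AAK-2, 251, 224 and 263 CPM in CA-CRTC-1 and 27.3, 16.11 and 22 CPM in N2, and all 3 transgenic strains stood above N2. lin-42, the worm's period gene, which cycles with the moults, had 181, 109.7 and 227 CPM in the double strain, 184, 133 and 198 CPM in CA-AAK-2, 164, 144 and 184 CPM in CA-CRTC-1 and 66.7, 74.3 and 84.3 CPM in N2. myrf-1, a membrane-bound factor needed for the moult, rose by 1.23 on the log2 scale and mab-10, a cofactor of the larva-to-adult switch, by 1.43. Of 18 timing genes 7 rose against N2 (6 of the 16 at or above 5 CPM in both strains) and 0 fell, 1 rose against CA-CRTC-1 and 1 against CA-AAK-2. The labels give the stage as L4 without an hour. The part of stage within L4 in the differences from N2 was not tested.

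**Figure D4:**
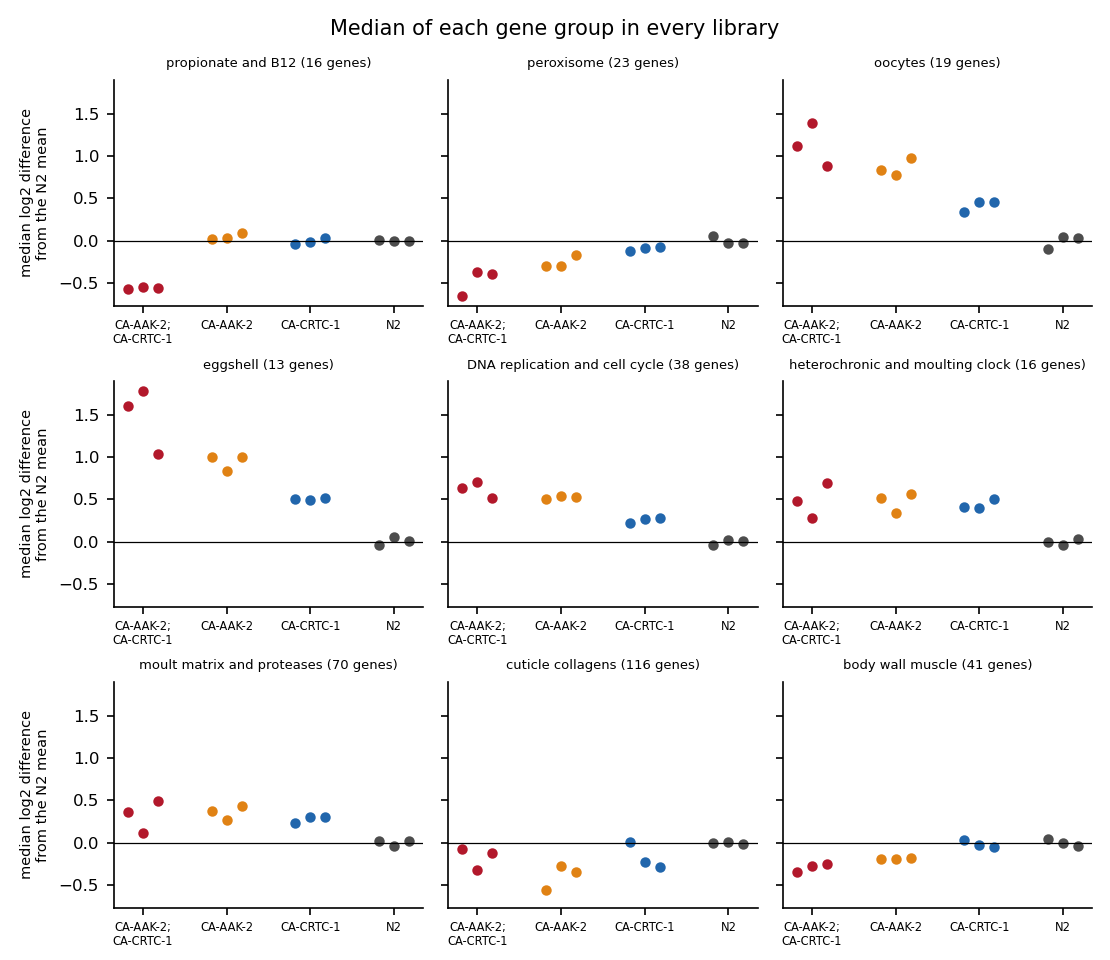
For 9 gene groups each point is 1 library: the median over the group's genes at or above 5 CPM in both strains of log2(CPM + 0.5) minus the N2 mean, with the number of genes in the panel title. The propionate and B12 group is low in the 3 double libraries alone, oocyte and eggshell groups are highest in double replicates 1 and 2, and the timing and moult groups are raised in all 9 transgenic libraries.

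Of 31 FMRFamide-like, insulin-like and related peptide genes 13 rose against N2 and 0 fell (median 0.56; 8 by edgeR and 7 after median-ratio scaling; 8 of the 25 at or above 5 CPM in both strains rose), 9 rose against CA-AAK-2 and 1 against CA-CRTC-1, and 0 were apart. flp-2 rose by 1.01 and flp-5 by 0.97 on the log2 scale. Of 29 pan-neuronal and synaptic genes 4 rose by limma (13.8%, near the 13.2% of all genes at or above 5 CPM in both strains). The count was 2 without replicate 3 of the double strain, and 1 by edgeR or after median-ratio scaling. The 4 were egl-3 and egl-21, which process peptides, sbt-1, the chaperone of the EGL-3 protease, and ida-1, a dense-core vesicle protein. ida-1 had 113, 102.6 and 115 CPM in the double strain, 70.04, 72 and 60.33 CPM in CA-AAK-2, 91.6, 94.5 and 96.5 CPM in CA-CRTC-1 and 61.5, 66.21 and 64.7 CPM in N2 (0.78 ± 0.08). The median of the neuronal list was -0.02, its summed level 1889.9 to 2064 CPM in the double strain and 1753 to 1875 CPM in N2, and 0 of 12 glial genes were called by limma, edgeR or DESeq2 (4 at an unadjusted p under 0.05).

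Genes of monoamine signalling were tested because octopamine and related transmitters signal energy state in the worm. tdc-1, the decarboxylase that makes tyramine, had 57.7, 73.1 and 43.4 CPM in the double strain, 42.8, 45.8 and 42.3 CPM in CA-AAK-2, 34.4, 35.4 and 34.1 CPM in CA-CRTC-1 and 22.6, 24 and 22.7 CPM in N2 (1.28 ± 0.13). tbh-1, which makes octopamine from tyramine, had 23.3, 40.7 and 15.4 CPM in the double strain, 8.84, 11.4 and 9.09 CPM in CA-AAK-2, 21.4, 20.8 and 20.6 CPM in CA-CRTC-1 and 17.7, 17.2 and 15.8 CPM in N2. Its double libraries were spread around those of N2 and it was not called (0.52 ± 0.23, adjusted p = 0.064), though it was called higher than in CA-AAK-2 (1.29 ± 0.23) and higher than in N2 without double replicate 3 (0.85). cat-4, which makes the cofactor of monoamine synthesis, rose (0.89 ± 0.13), and bas-1, the decarboxylase of dopamine and serotonin synthesis, fell to 18.6, 16.5 and 22.4 CPM in the double strain, against 32.7, 32.1 and 36.6 CPM in CA-AAK-2, 27.4, 29.3 and 32.6 CPM in CA-CRTC-1 and 32.1, 35 and 36 CPM in N2. The octopamine receptor gene ser-3 rose by limma (0.63 ± 0.11) but not by edgeR (0.52), and octr-1 was below the filter and was not tested.

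The transcription factors usually named with these pathways stayed under the fold threshold. nhr-49 (0.27 ± 0.06), skn-1 (0.43 ± 0.07), daf-16 (0.43 ± 0.09) and crh-1 (0.51 ± 0.11; 0.60 and called without N2 replicate 3) had adjusted p of 9.9e-04, 9.8e-05, 9.2e-04 and 0.0013 from limma. elt-2, the GATA factor of the intestine, had 32.9, 32.7 and 32.8 CPM in the double strain, 20.3, 17.8 and 19.9 CPM in CA-AAK-2, 20.02, 21.9 and 22.1 CPM in CA-CRTC-1 and 20.3, 20.5 and 20.5 CPM in N2. It rose by limma (0.67 ± 0.08) and by edgeR stood at 0.53, under the threshold. klf-3, a Kruppel-like factor known from fat metabolism, had 15.9, 16.3 and 15.7 CPM in the double strain, 8.75, 7.38 and 9.4 CPM in CA-AAK-2, 6.83, 7.83 and 11.21 CPM in CA-CRTC-1 and 7.68, 7.87 and 8.63 CPM in N2 and was apart, as was zip-5, a bZIP factor, which rose by 1.60 on the log2 scale. Of 83 nuclear hormone receptor genes 7 rose and 11 fell (5 and 15 by edgeR, 3 and 14 after median-ratio scaling; 4 and 7 of the 70 at or above 5 CPM in both strains). Of these nhr-50 rose by 1.16, nhr-101 fell by 0.84 and nhr-105 fell by 0.71. In the insulin pathway the receptor daf-2 rose to 103.6, 90.9 and 85.9 CPM in the double strain, against 50.6, 49.4 and 51 CPM in N2. Of 57 Argonaute and small RNA genes 17 rose by limma and 11 by edgeR, and 0 fell.

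Markers of the main tissues were measured in the same libraries. Of 41 body wall muscle genes 7 fell and 0 rose (median -0.31), but 4 fell without N2 replicate 1 and 12 by edgeR. The summed level was 21923 to 22820 CPM in the double strain, 22427 to 23682 CPM in CA-AAK-2, 25383 to 28343 CPM in CA-CRTC-1 and 25577 to 27840 CPM in N2. Of 21 intestinal genes 8 fell and 2 rose. Their summed level was 2811 to 2918 CPM in the double strain, 2625 to 2957 CPM in CA-AAK-2, 3376 to 3754 CPM in CA-CRTC-1 and 3656 to 3809.7 CPM in N2. In both lists the double strain overlapped or lay close to CA-AAK-2. pho-1 and pept-1, a phosphatase and a peptide transporter of the gut lining, fell (-1.16 and -0.998), whereas the intestinal genes ges-1 and act-5 stood at -0.44 and -0.52, and edgeR called act-5 lower (-0.67), as did limma without double replicate 1 (-0.59). Of 18 epidermal and seam genes 10 rose and 0 fell (7 of the 15 at or above 5 CPM in both strains rose). The part of tissue makeup in the gene differences above was not tested.

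**Figure D5:**
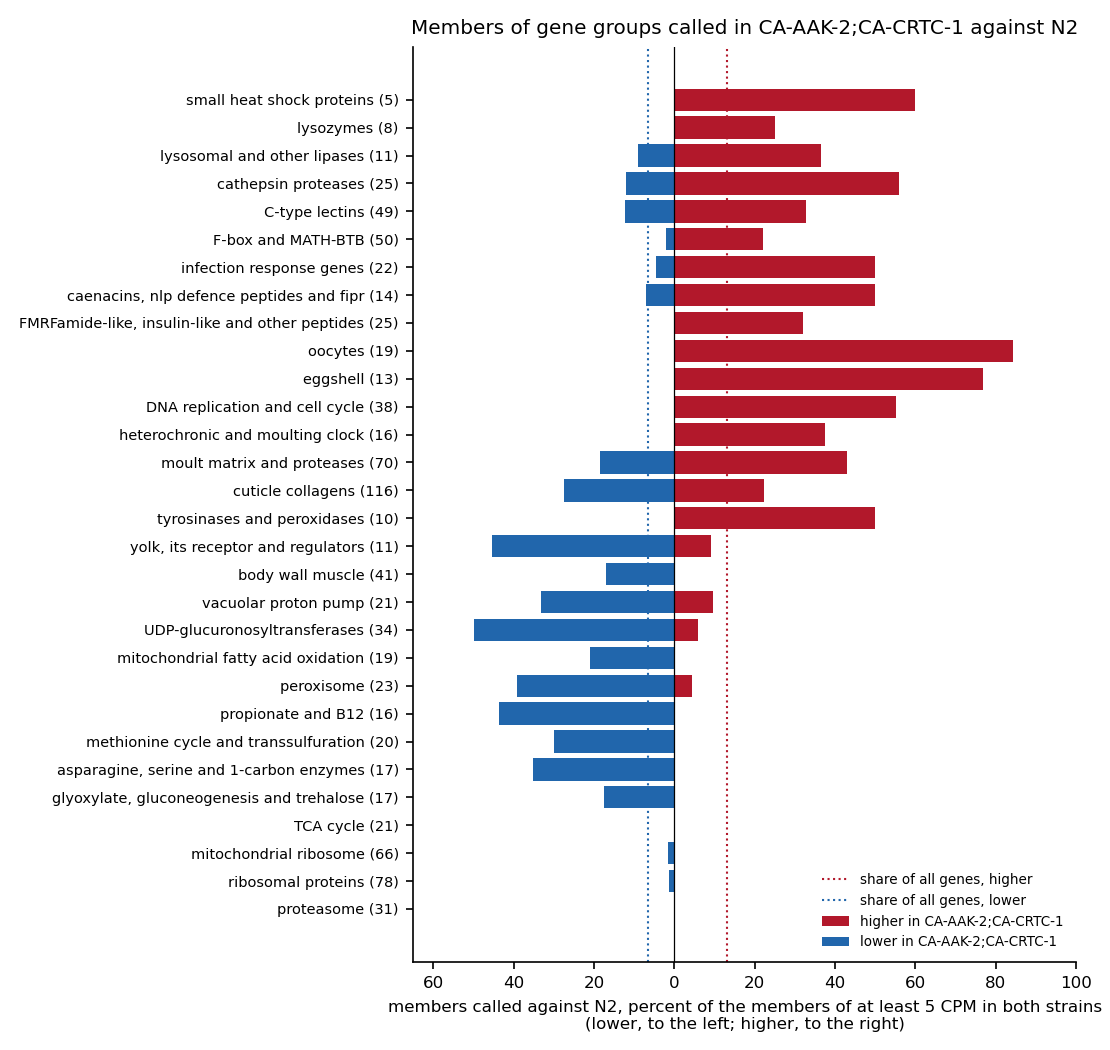
For 30 gene groups, with the number of members at or above 5 CPM in both strains in brackets, bars give the percentage of these that rose (right) or fell (left) in the double strain against N2, and dotted lines the share over all genes at or above 5 CPM in both strains (13.2% and 6.5%). Oocyte and eggshell genes have the highest shares of rises drawn (84.2% and 76.9%), and UDP-glucuronosyltransferases the highest share of falls (50%).

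In terms of transcript mass, the genes that rose held 114583 CPM in the double strain and 51182 CPM in N2, and those that fell 64111 CPM in the double strain and 120521 CPM in N2. After aak-2, the largest gains were those of proteases, with asp-1 at 4048 ± 262 CPM in the double strain and 2291 ± 171 CPM in N2 (mean ± SD, n = 3). Next were asp-6, at 2552 ± 372 CPM in the double strain and 1144 ± 67.8 CPM in N2, and clec-63, a C-type lectin gene, at 2438 ± 405 CPM in the double strain, against 1048 ± 86.8 CPM in N2. The largest losses were those of vit-6, with 1405 ± 981 CPM in the double strain and 3461 ± 202 CPM in N2 (no longer called when these strains were fitted alone), of acdh-1, with 978 ± 124 CPM in the double strain and 2746 ± 109 CPM in N2, and of ahcy-1, with 1461 ± 15 CPM in the double strain and 3047 ± 130.5 CPM in N2. Few housekeeping genes were called: 1 of 78 ribosomal protein genes fell (3 by edgeR), and of 31 proteasome genes 0 were called by limma, edgeR or DESeq2, with 8 at an unadjusted p under 0.05. The summed level of the ribosomal protein list was nonetheless lower in the double strain, at 87041 to 93620 CPM (median difference -0.19). It was 99240 to 107070 CPM in CA-AAK-2, 98098 to 102310 CPM in CA-CRTC-1 and 101610 to 103590 CPM in N2.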

How the data were processed

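Polyadenylated RNA of whole L4 animals was sequenced in 50 cycles from paired ends, with libraries from 4 micrograms of total RNA. Per the labels' series text, the authors used edgeR to scale for depth and RNA composition and deposited CPM. Per the submitters' processing notes, CASAVA 1.8.2, cutadapt, TopHat2 2.0.8 and HTSeq were used. The build is uncertain, since ce6 and WS238 are both named, and WBcel235 was used only to place 14282 genes on chromosomes. 743 deposited genes have a mean under 1 CPM.

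Differences were tested with limma 3.58.1 (R 4.3.3, trended prior) on log2(CPM + 0.5), with all 12 libraries in 1 fit, genes of at least 1 CPM on average in the fit and at least 5 CPM over the 6 libraries compared in the test and its Benjamini-Hochberg adjustment. The thresholds follow the series text, which used edgeR's generalised linear model; the reads were recovered from the CPM steps (100% of values whole within 0.02) and given to edgeR 4.0.16 and DESeq2 1.42.0 as alternatives. The test was tried on simulated data for the comparison with N2. Depth was 30887631 to 48989013 reads, and intervals and floors cover counting error only.

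Genes named are a fixed panel, the 12 largest rises and falls, the 10 largest in each direction of the genes apart from all other strains, the 8 largest gains and losses of CPM, and up to 5 called members of each of 85 gene lists; the text uses part of them and says where a gene was chosen otherwise, except members named as not called. The members and lists were chosen with earlier results of these data known. 2 lists (ribosomal proteins and chemoreceptor families) were corrected after values were seen. Counts over members at or above 5 CPM in both strains were added after values were seen.

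Samples were grouped by genotype as labelled. Same-numbered libraries of the double strain and CA-AAK-2 deviated together from their group means (r = 0.252, 0.313 and 0.275), so that by the rule of 0.1 they were taken to pair. The main fit, with its SE and p, did not use this pairing. With the replicate number as a block 1220 genes were called against CA-AAK-2, and 1198 without it. No label says that a number marks a shared batch. Same-numbered libraries of the double strain and N2 (-0.102, 0.206 and -0.0177) and of the double strain and CA-CRTC-1 (-0.119, 0.079 and -0.130) did not. A pair of unlike number, double replicate 1 and CA-CRTC-1 replicate 3, reached 0.214, so the rule separates little. Alternatives were pseudocounts of 0.1 and 2 CPM, a filter of 1 CPM or none, median-ratio and equal-total scaling, a fit of the groups compared alone, the replicate number fitted as a block, a prior held constant, a looser threshold, and leaving out each library. Promoter and protein sequences were not used here.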

Additional observations from a re-analysis of the deposited data

How the results depend on the processing

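Counts of called genes moved most with the threshold, the filter and the scale. With the adjusted p limit at 0.05 and no limit on fold the double strain was called against N2 in 6357 genes (4328 higher and 2029 lower), against CA-CRTC-1 in 4200 (2589 and 1611) and against CA-AAK-2 in 3748 (2045 and 1703), and 966 genes were apart and higher and 885 apart and lower. Without a filter 3632 genes were called against N2 (2710 higher), 791 were higher against CA-CRTC-1, 1986 were called against CA-AAK-2 (1473 higher) and 470 were apart and higher. With a filter of 1 CPM 1307 genes were higher against CA-AAK-2 and 399 apart and higher. After median-ratio scaling 1071 genes rose and 1157 fell against N2, and DESeq2 called 1161 lower; 382 were then higher and 579 lower against CA-CRTC-1, and 699 higher and 462 lower against CA-AAK-2. Leaving out each library in turn gave 2279 to 2471 calls against N2 (1598 to 1786 higher and 665 to 816 lower), 819 to 1191 against CA-CRTC-1, 1085 to 1307 against CA-AAK-2, 213 to 280 genes apart and higher and 178 to 227 apart and lower. With replicate number as a block 2389 genes were called against N2 and 2381 of the 2383 calls were kept; the block changed no other count by more than 1.5 times. Of 3161 values of 176 named genes under the alternatives, 3073 kept their direction and their side of the threshold, 25 lost the call, 49 gained it and 14 changed sign. Those that changed sign were of genes not called: with median-ratio scaling, edgeR and DESeq2 aakb-2 stood at -0.1295, -0.1107 and -0.125, mmcm-1 at -0.0573, -0.0376 and -0.0522, and sek-1 at -0.0990, -0.0779 and -0.0914. With a library left out aakb-1 ranged from -0.1171 to 0.0036, pmk-1 from -0.1434 to 0.0168 and vit-2 from -0.9529 to 0.0417. vit-6 was no longer called when the double strain and N2 were fitted alone (-1.59). The cause of these changes was not tested. The precision of every comparison is limited by 3 libraries a strain.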
